A study of Medicago sativa with 9 samples.

Results

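Compact antisense lncRNAs are long non-coding RNAs read from the strand opposite an annotated gene over a short stretch of genome. They were taken from the deposited leaf lncRNA table of alfalfa as every transcript with the antisense class code x and a genomic span under 10000 bases. This gave 611 of 64684 listed transcripts, and 611 of the 1215 antisense ones. The 9 libraries came from leaves of field-grown Medicago sativa, cultivar Kangsai. Plants 20 cm tall were divided into a control group, a low Se group sprayed with selenite at 100 mg/L and a high Se group sprayed at 500 mg/L, with 3 sprays 7 days apart and 3 libraries per group. The labels do not say what the control plants were sprayed with, nor whether libraries of the same group are separate plants. The tests therefore measure only the spread between these libraries, which may be technical.

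Antisense transcripts can act on the gene they face. In Arabidopsis, COOLAIR, the antisense RNA of the flowering repressor FLC, takes part in silencing that gene in the cold. In rice, an antisense RNA of the phosphate exporter gene PHO1;2 promotes translation of its sense partner when phosphate is scarce. Selenite is an oxyanion that plant roots take up in part through phosphate transporters. For the alfalfa host genes no function is given here: 0 of the 519 host gene names matched the gene table at hand, and no sequence of the assembly used in the table was available for printing. The table lists only predicted lncRNAs, so leaf marker genes were not measured either.

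The compact antisense lncRNAs were mostly short spliced transcripts. 511 of the 611 had 2 exons, 50 had a single exon and 50 had 3 or more. Spliced lengths ran from 201 to 1909 bases with a median of 312, close to the 313 of the whole table. All 611 carried a strand (275 plus, 336 minus), against 28.9% of all listed transcripts, and 8.18% had a single exon, against 79.0% of all. The strand was fixed by the selection, since the antisense class requires one. Antisense transcripts of longer span and sense-overlapping ones all carried a strand too, with 0% and 0.306% of a single exon. They belonged to 531 loci on 519 host genes. Of these loci 473 held 1 member, 44 held 2 and 14 held 3 or more. 595 lay on the 32 chromosomes of the table and 16 on unplaced scaffolds. Chromosome 3.1 had the most, 34 of its 2212 listed transcripts, and chromosome 6.4 the fewest, 5 of 1368.

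Spans ran from 202 to 9938 bases. 221 members spanned under 1000 bases, 174 spanned from 1000 to under 5000 and 216 spanned 5000 or more. In the 2-exon members the differences in span lay mainly in the intron: its length ran from 20 to 9675 bases, with 106 introns under 100 bases and 322 of 1000 bases or more. The median intron of the 2-exon members spanning under 1000 bases was 54 bases. Whether such short gaps are true introns was not tested. Exons took a median of 82.6% of the span of the spliced members under 1000 bases, and 4.61% of that of members of 5000 bases or more. The deposited CPC score of coding potential had a median of 0.0173 and a maximum of 0.472, within the range of the table.

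**Figure D1:**
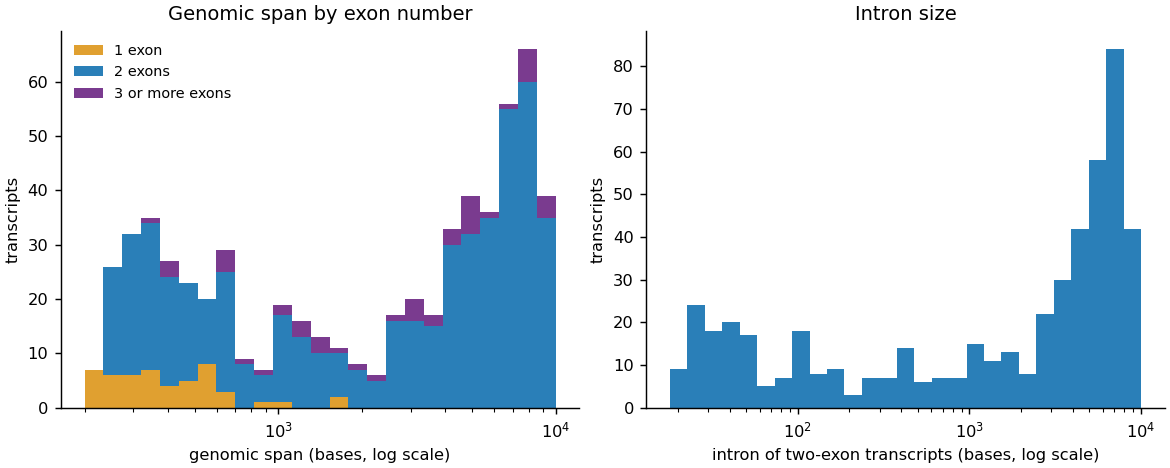
Left, number of compact antisense lncRNAs by genomic span in bases on a log scale, stacked by exon number; right, intron length of the 511 members with 2 exons, in bases on a log scale. Short and long spans and introns are both common, with members in between, and the 50 single-exon members span at most 1787 bases.

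The length limit divided a continuous range. The 3 members just inside it, MSTRG.123421.1, MSTRG.45887.1 and MSTRG.151530.1, spanned 9878, 9893 and 9938 bases, with mean levels of 4.90, 0.761 and 1.11 FPKM. FPKM is a fragment count relative to transcript length and library depth. The 3 antisense transcripts just outside, MSTRG.133480.1, MSTRG.36186.1 and MSTRG.147032.1, spanned 10004, 10008 and 10277 bases and had means of 1.57, 0.967 and 0.0584 FPKM. Each of the 6 had 2 exons.

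Levels were low for most members and very high for a few. The median of the members' mean levels over the 9 libraries was 1.35 FPKM, against 1.44 for the 604 antisense transcripts of longer span and 0.746 for the whole table. A mean of 10 FPKM or more was reached by 60 members (9.82%), by 5.96% of the long-span antisense transcripts and by 1.92% of the table. 138 members, or 22.6%, were above 0 in all 9 libraries, beside 18.7% of the long-span antisense transcripts and 11.6% of the table. These differences were not tested. Another 60 members were above 0 in 1 library only, and 1 member was listed at 0 in all 9. Breadth differed with exon number: 29 of the 50 single-exon members were above 0 in all 9 libraries, as were 101 of the 511 with 2 exons and 8 of the 50 with more. Level differed as well, with medians of the mean levels of 3.28, 1.29 and 1.12 FPKM in the same order. The part of level in this breadth was not tested.

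The number of members above 0 was 370, 349 and 323 in the control libraries, 366, 413 and 335 in low Se and 398, 433 and 416 in high Se. The high Se libraries lay above all control libraries, while low Se 2 lay within the high Se range. The mean was 347 ± 23.5 for control, 371 ± 39.3 for the low dose and 416 ± 17.5 for the high dose (SD, n = 3). The whole table moved alongside, with 53.4%, 45.6% and 40.4% of transcripts above 0 in control, 47.7%, 51.7% and 43.4% in low Se and 51.1%, 56.4% and 55.3% in high Se. Aligned sequence, read from the ratio of coverage to FPKM, was 2.55, 1.44 and 2.78 gigabases in control, 1.68, 2.65 and 2.11 in low Se and 2.07, 2.97 and 2.49 in high Se. Control 3 thus had the second highest depth and the fewest members. The part of depth or library quality in the number of members detected was not tested. A median member had 0.950 to 9.82 estimated reads per library, so single values of low members carry a large counting error.

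**Figure D2:**
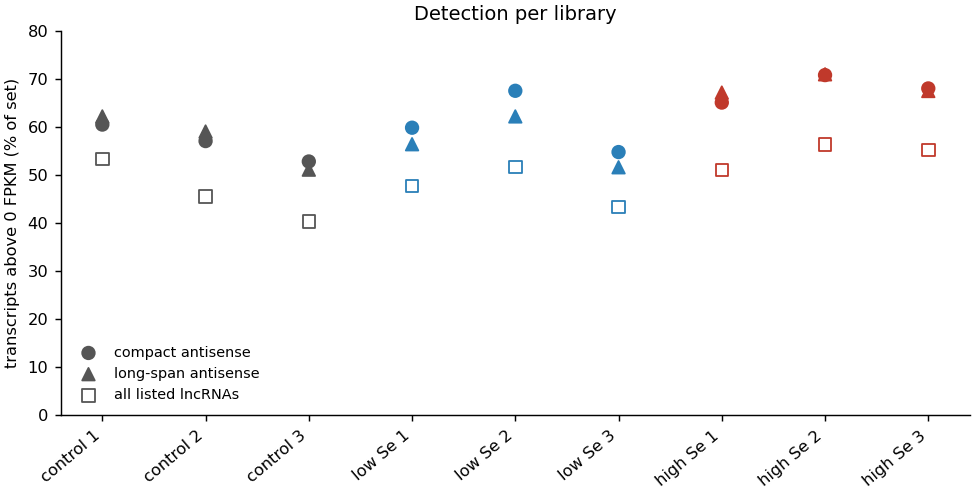
Share of transcripts above 0 FPKM in each library, in percent of the set, for the 611 compact antisense lncRNAs (circles), the 604 long-span antisense lncRNAs (triangles) and all 64684 listed lncRNAs (open squares). Compact antisense lncRNAs range from 52.9% in control 3 to 70.9% in high Se 2, and the whole table is lower in every library. Long-span antisense lncRNAs lie above the compact ones in control 1 and 2 and in high Se 1 and 2, and below them in the other libraries.

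A single locus held nearly all of the signal. MSTRG.91972.1 and MSTRG.91972.2 share their ends on chromosome 5.1 (71793729 to 71794712, minus strand) and have 2 exons and 303 bases each, antisense to MS.gene038092. A further listed form of the locus is not a member. The 2 members also have equal scores of coding potential, so the division of reads between them is uncertain. Together they took 92.7% to 96.1% of the FPKM summed over the 611 members of a library. The first form had 88049, 68486 and 73124 FPKM in control, 59905, 78303 and 93638 in low Se and 74700.1, 61393 and 52472 in high Se. The groups overlapped, and the first form was among the 5 steadiest members, with a coefficient of variation of 18.5% over the 9 libraries. The second form had 56538, 10413 and 8049 FPKM in control, 29919, 22313 and 23940.5 in low Se and 28357, 23569 and 32449 in high Se. Its share of the FPKM of the 2 members was 39.1%, 13.2% and 9.92% in the control libraries, 33.3%, 22.2% and 20.4% in low Se and 27.5%, 27.7% and 38.2% in high Se. The widest spread of that share was thus within the control group, whose lowest and highest values enclosed all the others.

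The opposite strand of this locus is listed too. MSTRG.91973.1, a sense-overlapping transcript of 294 bases on the plus strand (71793729 to 71794704), covers almost the same interval with 2 exons. It had 426, 155 and 251 FPKM in control, 245, 244 and 163 in low Se and 347, 292 and 418 in high Se. With its junction-sharing form MSTRG.91973.2, the sense strand summed to 245 to 1179 FPKM. The antisense sum of the 2 members was 79.4 to 367 times as high, lowest in high Se 3 and highest in low Se 1. The labels describe a dUTP second strand, which keeps strand, but whether the values were computed by strand is not given in the sources used here. Without that, reads of a gene and of its antisense partner cannot be told apart, and this holds for every level given here, the ratio above included. Only 28.9% of all listed transcripts carried a strand, and what the strand of a member rests on was not tested. In all, 78 members overlapped 92 listed transcripts on the opposite strand, and 41 of the 78 had such a partner on their own host gene. The member had the higher mean in 28 of them and the partner in 50.

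**Figure D3:**
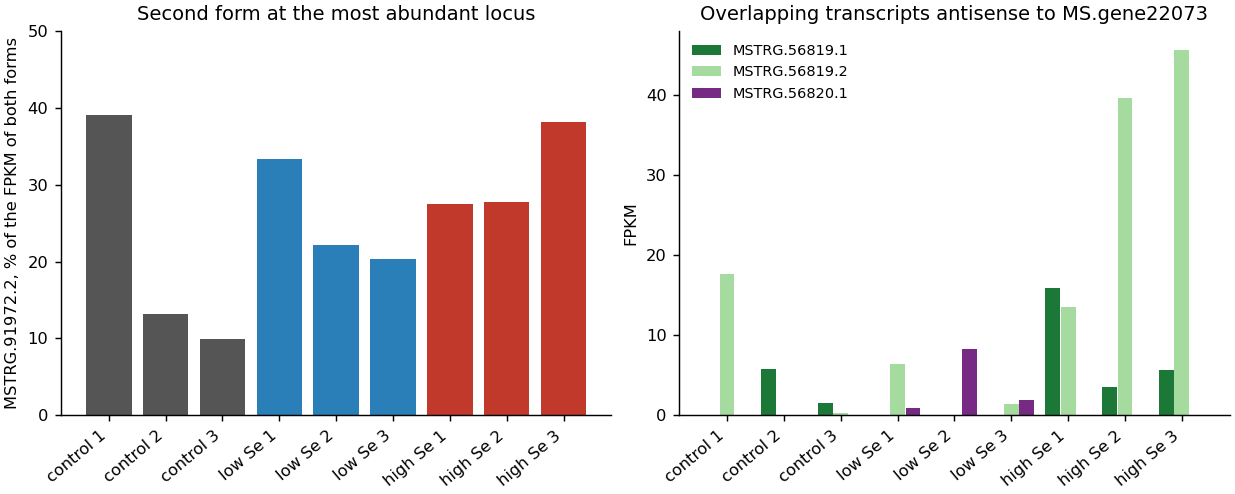
Left, MSTRG.91972.2 in percent of the summed FPKM of both member forms of MSTRG.91972, per library. Right, FPKM per library of 3 transcripts with overlapping spans antisense to MS.gene22073. The share of the second form spans 9.92% to 39.1% within control alone, and MSTRG.56820.1 is above 0 in the 3 low Se libraries only.

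Below that locus the next most abundant member was MSTRG.96975.1 (chromosome 5.2, 81650918 to 81651641, 283 bases, host MS.gene81230). It had 1197, 802 and 369 FPKM in control, 611, 1555 and 1367 in low Se and 625, 2156 and 1064 in high Se. MSTRG.5360.1 on scaffold 6899 (10195 to 17367, 1714 bases, host MS.gene046727) was listed at 0 in control 1 and high Se 3. It had 130.1 and 160.0 FPKM in the other 2 control libraries, 259, 237 and 222 in low Se and 33.1 and 165 in the other 2 high Se libraries. Its low Se values were the 3 highest of the 9, with a limma adjusted p of 0.629 against control and 0.620 against high Se. MSTRG.36588.1 on chromosome 2.3 (11486611 to 11487580, 936 bases, host MS.gene029004) had 91.2, 104 and 65.5 FPKM in control, 71.9, 64.0 and 39.2 in low Se and 110.2, 206 and 161 in high Se. All its high Se values lay above the other 6, with a limma adjusted p of 0.562 against control and 0.462 against low Se. The single-exon MSTRG.14752.1 (chromosome 1.2, 64254828 to 64255050, host MS.gene07402) was at 72.0, 78.1 and 65.4 FPKM in control, 61.3, 109 and 117 in low Se and 268, 108 and 84.2 in high Se. High Se lay above control and overlapped low Se, with a limma adjusted p of 0.567 against control. The single-exon MSTRG.37277.1, antisense to MS.gene060981, ranged from 55.0 to 151 FPKM with overlapping groups.

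**Figure D4:**
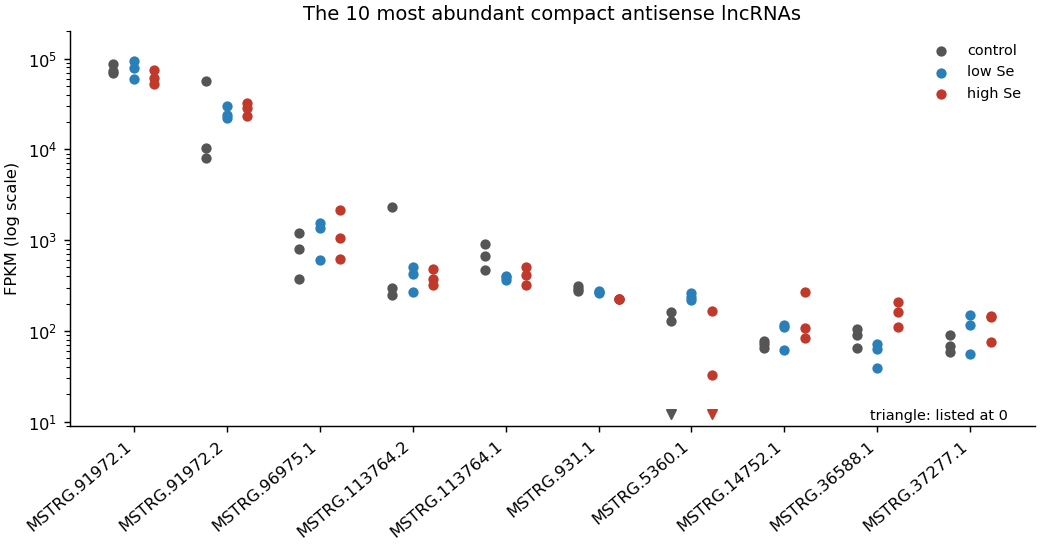
FPKM on a log scale of the 10 members with the highest mean, 1 point per library, coloured by group; triangles at the lower edge mark groups with a library listed at 0. MSTRG.931.1 has the tightest points, and MSTRG.113764.2 has 1 control library far above the other 8.

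The steadiest member was also abundant. MSTRG.931.1 (scaffold 21193, 3707 to 5585, plus strand, 2 exons, 955 bases, host MS.gene001567) had 292, 311 and 272 FPKM in control, 266, 275 and 264 in low Se and 225, 227 and 223 in high Se. All 3 high Se values lay below the other 6, and low Se 2 lay above control 3. It rested on 3025 to 5128 estimated reads per library, and its coefficient of variation was 11.9%. The mean of 225 ± 1.69 in high Se was 22.9% below the 292 ± 19.3 of control and 16.2% below the 268 ± 5.65 of low Se (SD, n = 3). An exact two-sided permutation test gave p = 0.1 for each, the smallest that 3 against 3 allows, and 0.5 after Benjamini-Hochberg adjustment over the 15 such tests on the 5 steadiest members. In the fit over all transcripts its limma adjusted p was 0.777 against control and 0.896 against low Se. That fit draws the spread of a transcript towards that of others of similar level, and gave an SE of 0.38 on the log2 scale here. These adjusted p therefore do not measure the spread of its own libraries alone. MSTRG.16938.1 (chromosome 1.3, 230 bases, host MS.gene00442) was nearly as steady at a low level, 2.07 to 3.18 FPKM, with a coefficient of variation of 13.3%. The others were MSTRG.149432.1 (7.45 to 16.2 FPKM) and MSTRG.103295.1 (2.04 to 4.73 FPKM).

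Several host genes carried a series of overlapping members. MS.gene074567 on chromosome 6.3 faced 6 of them between positions 14080459 and 14088223, all on the minus strand. The leading pair, MSTRG.113764.1 and MSTRG.113764.2, have the same lower coordinate, while their upper ones are 14087539 and 14083838. MSTRG.113764.1 gave 895, 662 and 474 FPKM in the control libraries, 389, 398 and 361 in low Se and 320.0, 501 and 410.2 in high Se. MSTRG.113764.2 had 2317 FPKM in control 1 and 249 to 502 in the other 8 libraries. MS.gene074248 on chromosome 6.2 faced 4 members between 14383409 and 14392934. Among them MSTRG.109987.1 was at 45.1 to 147 FPKM. MSTRG.109985.1, described below, was also above 0 in every library but varied far more.

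Which form led a locus changed between libraries. At MSTRG.18367 (chromosome 1.3, 25368683 to 25369111, minus strand, host MS.gene063221), 4 forms with 3 or 4 exons summed to 18.4, 12.1 and 15.9 FPKM in control, a different form leading in each. In low Se they summed to 27.5, 26.7 and 37.2 FPKM, led each time by MSTRG.18367.2. In high Se the sums were 292, 4.32 and 7.20 FPKM, and the first of these came from MSTRG.18367.1 at 265 FPKM. Low Se lay above control, and high Se reached above and below both. At MSTRG.50129 (chromosome 3.1, 92552564 to 92559520), 7 forms facing MS.gene68162, MS.gene68163 and MS.gene68164 summed to 2.34 to 12.6 FPKM, with 4 different forms leading. At the other 12 loci with 3 or more member forms, 2 or 3 different forms led across the libraries. They were MSTRG.103176, MSTRG.112745, MSTRG.108115, MSTRG.60560, MSTRG.136686, MSTRG.146464, MSTRG.61623, MSTRG.98746, MSTRG.623, MSTRG.113764, MSTRG.113766 and MSTRG.80215.

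For the comparisons between groups all transcripts averaging 0.5 FPKM or more were fitted together with limma on log2(FPKM + 0.1), a scale that understates changes of low values. Of the 611 members 502 passed that minimum. The threshold for a call was 0.05 on the p adjusted by Benjamini and Hochberg's method. None of the 502 was called in any of the 3 comparisons.

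Low Se leaves were compared with control to ask which members differed at the lower dose. The smallest adjusted p belonged to members listed at 0 in all control libraries, at the MSTRG.98746 locus and 2 others, and to MSTRG.109655.1, which was near 0 in low Se alone. With 0 members called, the background was 0.0274% of the 43763 tested transcripts. An unadjusted p below 0.05 was reached by 48 members (9.56%), of which 30 were higher and 18 lower in low Se, beside 8.43% of all tested (4.3% higher, 4.13% lower). At an adjusted p below 0.1 there were 4 members (0.797% of the 502), against a background of 0.0983%. Groups did not overlap for 30 higher members (5.98%, background 4.78%) and 22 lower ones (4.38%, background 4.32%). The median log2 difference was 0.13 over the tested members and 0.00 over all.

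MSTRG.98746 lies on chromosome 5.3 (24063304 to 24069326, minus strand), antisense to MS.gene45098. Its 3 forms, with 8, 5 and 3 exons, share an end, and MSTRG.98746.1 has the most exons of any member. The only other member with 5 exons, MSTRG.623.2 (scaffold 15694, 981 bases, host MS.gene89527), ranged from 0 to 3.08 FPKM. All 3 forms of MSTRG.98746 were listed at 0 in each control library. MSTRG.98746.1 stood at 1.42, 11.7 and 5.28 FPKM under low Se and 2.20, 3.62 and 6.02 in high Se. MSTRG.98746.3 had 4.32, 7.66 and 3.08 in low Se and 3.74, 2.31 and 3.35 in high Se, and MSTRG.98746.2 was at 0, 0.219 and 6.72 and at 6.27, 1.29 and 1.64. The locus thus held 49.4 to 305 estimated reads in each selenite library and 0 in each control library. Against control, the limma adjusted p was 0.0748 in low Se and 0.141 in high Se for MSTRG.98746.3, and 0.101 and 0.154 for MSTRG.98746.1. The forms share exons and reads, so they are not independent of each other.

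Another 2 members with values in all selenite libraries and none in control had few reads. MSTRG.116203.1 (chromosome 6.3, 77425973 to 77431348, 235 bases, host MS.gene51278) had 3.23, 6.77 and 10.2 FPKM in low Se and 1.07, 1.21 and 1.22 in high Se, with a limma adjusted p of 0.0748 for low Se against control and 0.354 for high Se. MSTRG.62581.1 (chromosome 3.4, 45381769 to 45384883, 232 bases, host MS.gene027236) had 5.07, 6.94 and 3.68 in low Se and 2.38, 0.867 and 5.10 in high Se, with 0.0895 and 0.241. Together with MSTRG.68983.1 (0.141 to 6.32 FPKM in the selenite libraries) and the 2 forms above, 5 of 611 members (0.818%) had this pattern, beside 0.294% of all listed transcripts. The 5 come from 4 loci.

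Members at or near 0 in low Se but present in the other groups formed the opposite pattern. MSTRG.109655.1 (chromosome 6.2, 9135558 to 9139979, plus strand, 269 bases, host MS.gene031158) had 17.5, 3.84 and 3.19 FPKM in control, 0, 0.220 and 0 in low Se and 4.43, 3.87 and 4.59 in high Se. Its difference of low Se from control was -5.37 ± 1.02 (SE) on the log2 scale, with a limma adjusted p of 0.0895. MSTRG.136561.1 (chromosome 7.4, 39400533 to 39401135, 558 bases, host MS.gene055151) had 4.04, 11.2 and 4.56, then 0, 1.08 and 0, then 7.11, 7.11 and 21.7 FPKM in the same order of groups. In each of these the low Se values lay below the other 6. MSTRG.112745.3, the longest member with 1909 bases (chromosome 6.2, 87528526 to 87533739, host MS.gene059623), had 4.43, 9.29 and 7.67 FPKM in control, 0, 0.230 and 1.55 in low Se and 8.04, 6.09 and 4.69 in high Se. The 4 member forms of its locus summed to 22.5 FPKM in low Se 1, 81.5% of it from MSTRG.112745.1, and to 0.455 and 1.55 in low Se 2 and 3. In control they summed to 4.43, 20.5 and 28.3 FPKM. The locus as a whole was thus not near 0 in low Se 1. MSTRG.148039.1 was alone among members in being at 0 throughout low Se with values in the other 6 libraries, at 0.884 to 4.17 FPKM. That is 0.164% of the members, beside 0.201% of all listed transcripts. For low Se against control the limma adjusted p of MSTRG.136561.1, MSTRG.112745.3 and MSTRG.148039.1 was 0.167, 0.220 and 0.253. MSTRG.127198.1 was above 0 in the 3 control libraries only, at 1.21 to 6.10 FPKM. It was the 1 member of that kind (0.164%, background 0.227%).

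**Figure D5:**
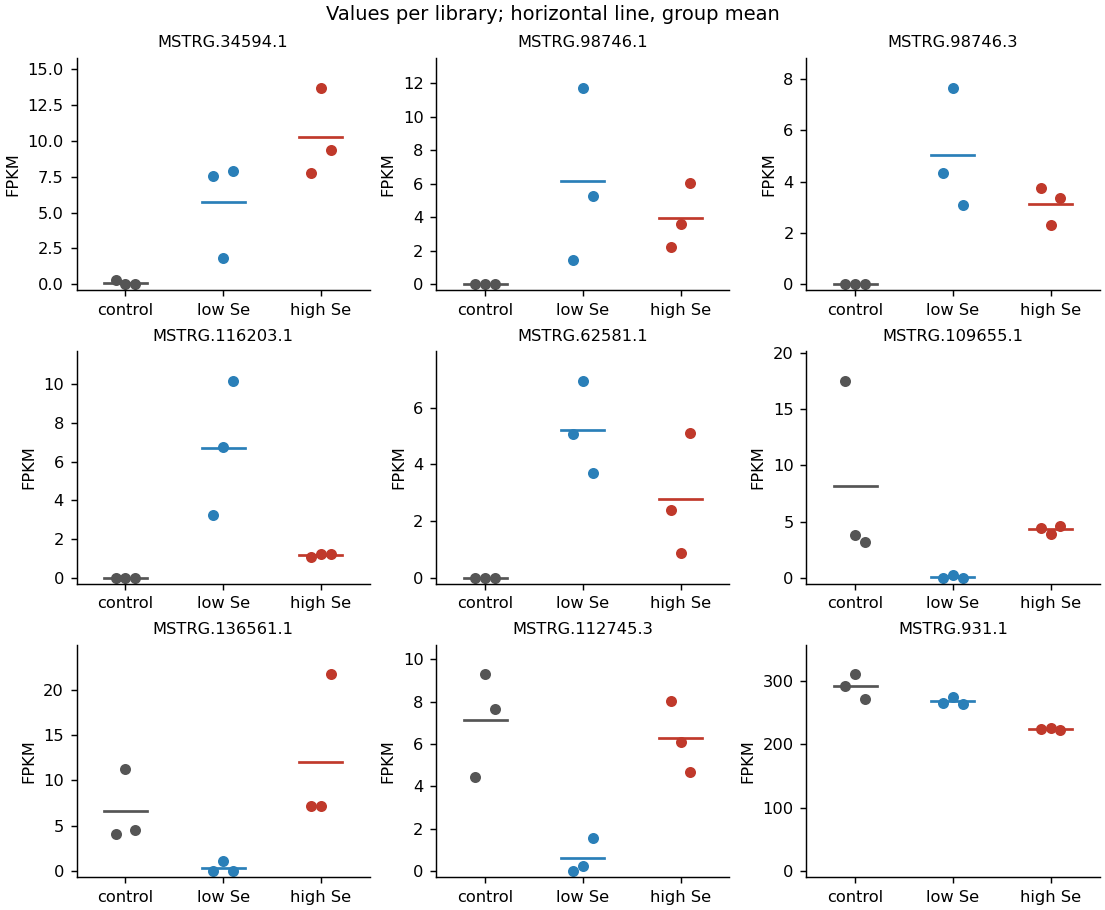
FPKM per library in control, low Se and high Se leaves for 9 named members, with the group mean as a horizontal line. The first 5 are at or near 0 in control, the next 3 at or near 0 in low Se, and MSTRG.931.1 is lowest in high Se; none passed an adjusted p of 0.05.

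High Se leaves were compared with control for the higher dose. MSTRG.34594.1 (chromosome 2.2, 58835095 to 58836649, minus strand, 310 bases, host MS.gene02038) had the smallest p. It was at 0.330, 0 and 0 FPKM in control, 7.57, 1.84 and 7.90 in low Se and 7.77, 13.7 and 9.35 in high Se. All 6 selenite values lay above all control values. The difference from control was 5.96 ± 0.98 (SE) on the log2(FPKM + 0.1) scale in high Se, with a limma adjusted p of 0.0622, and 4.92 ± 0.98 in low Se, with 0.105. Both comparisons use the same control libraries. In high Se its adjusted p ranged from 0.0153 to 0.426 over 19 alternative settings and was below 0.05 in 5 of them.

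With 0 members called in high Se against control, the background was 0.0229%. An unadjusted p below 0.05 was reached by 75 members (14.9%), 60 higher and 15 lower, beside 9.26% of all tested transcripts (6.11% higher, 3.15% lower). At an adjusted p below 0.1 there was 1 member (0.199%), against a background of 0.0708%. The count of 75 became 49 without control 3 (9.82%, background 7.41%) and 49 without high Se 3 (9.78%, background 7.02%). Groups did not overlap for 57 higher members (11.4%, background 7.81%) and 20 lower ones (3.98%, background 4.02%). The median log2 difference was 0.36 over the tested members and 0.26 over all transcripts, or 0.30 and 0.17 after median-of-ratios rescaling and 0.24 and 0.04 after quantile normalization. Members also had higher levels than the table, and the part of level in these shares was not tested.

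MSTRG.61602.1 (chromosome 3.4, 16071564 to 16079579, 872 bases, host MS.gene51807) was listed at 0 in control and in low Se 1 and 2, and had 6.41 FPKM in low Se 3 and 6.67, 13.2 and 12.9 in high Se (adjusted p by limma = 0.204 for high Se over control). Values in the high Se libraries alone were seen for MSTRG.110399.1, MSTRG.26680.1 and MSTRG.80185.1, at 1.40 to 8.77 FPKM. These 3 are 0.491% of the members, beside 0.529% of all listed transcripts. On the lower side, MSTRG.153313.2 (chromosome 8.3, 71889466 to 71898503, host MS.gene07842) stood at 49.3, 12.3 and 2.34 FPKM in the control libraries and 0.280, 0.771 and 0.712 in high Se. Its difference was -4.15 ± 1.12 (SE), with a limma adjusted p of 0.301. The other form at this locus, MSTRG.153313.1, stood at 18.7, 3.72 and 14.1 FPKM in the control libraries and 0.529, 0.418 and 2.28 in high Se. Of the overlapping members on the same host gene, MSTRG.153314.1 had 204 FPKM in control 1 and at most 10.4 elsewhere. MSTRG.106356.1 and MSTRG.109202.1 were listed at 0 in every high Se library and at 0.678 to 4.31 FPKM in control. MSTRG.109202.1 was the 1 member above 0 in all 6 other libraries and at 0 in high Se (0.164%, background 0.0587%).

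The doses were compared directly as well. MSTRG.136561.1 and MSTRG.109655.1, described above, had the smallest p, with differences of 5.51 ± 1.06 and 4.90 ± 1.02 (SE) of high Se from low Se and limma adjusted p of 0.159 and 0.203. MSTRG.94048.1 (chromosome 5.2, 21640833 to 21647906, 218 bases, host MS.gene027817) was listed at 0 in low Se and had 6.78, 12.7 and 7.67 FPKM in high Se and 6.52, 0 and 0.310 in control. With 0 members called, the background was 0.0206%. An unadjusted p below 0.05 was reached by 48 members (9.56%), 35 higher and 13 lower, beside 7.84% of all (5.23% higher, 2.61% lower). At an adjusted p below 0.1 there were 0 members, against a background of 0.0411%. Groups did not overlap for 49 higher members (9.76%, background 7.31%) and 16 lower ones (3.19%, background 3.94%). The median log2 difference was 0.30 over the tested members and 0.20 over all.

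A host gene with members of opposite pattern stood among these. The spans of MSTRG.56819.1 and MSTRG.56820.1 overlap on chromosome 3.3 (39715457 to 39725269 and 39715813 to 39725598, minus strand), antisense to MS.gene22073. By their lengths of 249 and 228 bases, their exons share no base. MSTRG.56819.1 stood at 0, 5.73 and 1.47 FPKM in the control libraries, 0.000965, 0 and 0 in low Se and 15.8, 3.55 and 5.61 in high Se. MSTRG.56820.1 was above 0 in low Se only, at 0.961, 8.30 and 1.95 FPKM, which rest on 2.61, 35.6 and 6.66 estimated reads. The other form of the first, MSTRG.56819.2, had 6.36, 0 and 1.45 FPKM in low Se and 13.5, 39.6 and 45.6 in high Se. The limma adjusted p between the doses was 0.289 for MSTRG.56819.1 and 0.436 for MSTRG.56820.1. Members lower in high Se than in low Se included MSTRG.102218.1, above 0 in low Se only at 3.72, 2.54 and 1.81 FPKM. With MSTRG.56820.1 it makes 2 members of that kind (0.327%, background 0.235%). MSTRG.56809.1 stood at 5.11, 6.80 and 8.39 FPKM under low Se and 1.17, 0 and 0 in high Se, and MSTRG.20203.2 had 1.30, 2.57 and 3.81 against 0.0808, 0.191 and 0.

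Control 1 differed from the other control libraries at some members. MSTRG.109985.1 (chromosome 6.2, 14383409 to 14387776, 361 bases, host MS.gene074248), named after its values were seen, had 1.20, 243 and 272 FPKM in control and 0.714 to 3.32 in the 6 selenite libraries. MSTRG.12769.1 (chromosome 1.2, 26524402 to 26524734, 249 bases, host MS.gene67156), also chosen after its values were seen, had 89.1 and 34.3 FPKM in control 2 and 3 and was listed at 0 in the other 7 libraries. Control 1 sat with the selenite libraries in both. Without control 1, 3 of 499 members (0.601%) were called in low Se against control, where the background was 0.0667%. In high Se against control, which then rests on the same control 2 and 3, 3 of 499 were called (0.601%), with a background of 0.069%. MSTRG.109985.1 and MSTRG.12769.1 were lower in both, with limma adjusted p of 0.0121 and 0.0424 in low Se and 0.0132 and 0.0384 in high Se. MSTRG.18367.2 was higher in low Se (0.0121) and MSTRG.34594.1 in high Se (0.0359). MSTRG.109985.1 and MSTRG.12769.1 were picked with the deviation of control 1 known, so their calls without it are no independent result. The library left out, control 1, was the only control library led by MSTRG.18367.2, with 91.3% of the locus FPKM. In control 2 all of the locus FPKM lay in MSTRG.18367.1, and in control 3 MSTRG.18367.3 held 96.8%. The locus sum ranged from 12.1 to 18.4 FPKM over the control libraries and from 26.7 to 37.2 over low Se. The part of the division of reads between forms in this call was not tested. Leaving out low Se 1 instead gave 30 calls over the whole table in low Se against control, with 0 members, beside 29 without control 1.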

How the data were processed

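Per the labels' protocols, rRNA-depleted total RNA was made into libraries with dUTP in the second strand. HISAT2, Bowtie2, StringTie and edgeR are named in the submitters' processing notes, without role or version, and the genome build is not given in the sources used here. Deposited values are FPKM for each transcript in each library and coverage, the mean signal over its bases, unscaled. The authors listed 0.0001 in place of 0, which was set back to 0. The deposited CPC and CNCI scores rate coding potential. Coverage multiplied by length, divided by 141 bases (the most frequent whole value of that product, within 0.02 bases, between 20 and 260), gave estimated reads, which are no counts, so no count test was run.

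All 43763 transcripts averaging 0.5 FPKM or more entered 1 limma 3.58.1 fit (R 4.3.3) of log2(FPKM + 0.1) over the 9 libraries, with a variance trend and no replicate block. P-values are two-sided, with Benjamini-Hochberg adjustment over all tested transcripts. The fit was tested on simulated data. Other values and figures used Python 3.11.15, pandas 2.3.3, SciPy 1.17.1 and matplotlib 3.10.9. No batch is labelled.

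Members and rules were chosen with earlier results of these data known. Named are, in each comparison and direction, the 5 members with the smallest p among those whose groups do not overlap, the 10 with the highest mean, the 5 with the lowest coefficient of variation among the 135 above 0 in all 9 libraries with a mean of at least 1 FPKM, the 3 just inside and outside the span limit, the 3 with the most exons, loci of 3 or more forms, and partners on their host genes. Others are said to be chosen after their values were seen or share a stated pattern.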

Additional observations from a re-analysis of the deposited data

How the results depend on the processing

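The result that no compact antisense lncRNA was called held in all 3 comparisons with a pseudocount of 0.01, a mean of at least 2 FPKM, median-of-ratios rescaling, no variance trend and fits of the 6 libraries alone. In low Se against control the count was 4 at an adjusted p below 0.1 and 3 without the filter (MSTRG.98746.3, MSTRG.116203.1 and MSTRG.109655.1), and 0 to 3 with 1 library left out. In high Se against control it was 1 at an adjusted p below 0.1, with a pseudocount of 1, without the filter, after quantile normalization or with library weights, each time MSTRG.34594.1, and 0 to 3 with 1 library left out. In high Se against low Se it was 1 without the filter (MSTRG.136561.1) and 0 with any 1 library left out. The calls with 1 library left out came without control 1. Of 561 alternative values for the 30 differences of named members, 9 passed. None turned its sign, which the choice of members whose groups do not overlap largely fixes. With the replicate block 0 members were called in each comparison, while the calls among all transcripts went from 12 to 10, from 10 to 4 and from 9 to 2. Over all alternatives those 3 counts ran from 1 to 56, from 1 to 49 and from 0 to 23, each highest without the filter. Replicate numbers showed no sign of pairing the libraries: deviations from the group means correlated at -0.0302 to 0.00147 over the 9 pairs of equal number. Of 9 libraries 0 correlated best with their own number. Most transcripts have low levels with a large counting error, so this check cannot exclude a pairing. The difference in members detected between high Se and control was 68.3, and 56.2 to 79.7 with 1 library left out, 61.3 at 0.5 FPKM or more and 66.3 at 3 or more estimated reads. Between low Se and control it was 24.0, and 3.17 to 42.2 with 1 library left out. Under a span limit of 5000 bases 395 transcripts would be members. The cause of these changes was not tested.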
